A study of Mus musculus and Homo sapiens with 14 samples.

Results

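The mRNA levels of 10 mouse genes that encode extracellular proteases and their inhibitors were followed in a murine oligodendrocyte precursor line and a murine medulloblastoma line, grown alone or together. The genes were Timp1, Timp2, Timp3 and Timp4 (tissue inhibitors of metalloproteinases), Mmp2, Mmp14 and Mmp15 (matrix metalloproteinases), Adam10 and Adam17 (membrane sheddases) and Serpine2 (a serine protease inhibitor). They were chosen by symbol, with earlier results on the same TPM values known, and all 10 were found among the 35288 gene identifiers of each mouse table. Their levels and changes are therefore given as a description and support nothing beyond themselves.

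The study grew cell lines alone or on opposite sides of a culture insert with pores of 0.4 µm, and sequenced poly(A) RNA of each line with a directional kit. Oli-neu is a murine oligodendrocytic line, MB1 was established at postnatal day 12 from sonic hedgehog medulloblastomas of Atoh1-cre:SmoM2 mice, in which an activated Smoothened is switched on where Atoh1 drives the recombinase, and the human partner line, D341, stands for Group 3 medulloblastoma. The mouse libraries formed 5 groups of 2 biological replicates: Oli-neu with D341, Oli-neu with MB1, Oli-neu alone, MB1 with Oli-neu, and MB1 alone. All cells received 20 ng/mL of murine EGF and of bFGF. All libraries of a line come from that 1 line, so the spread within a group is that between its cultures.

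Matrix metalloproteinases cut collagens, laminins and other proteins of the extracellular matrix, and the Timp proteins block them by filling the active site. Mmp14 sits in the cell membrane and, together with Timp2, activates the secreted gelatinase Mmp2, so that Timp2 can act on either side of the balance. Adam10 and Adam17 release the outer parts of membrane proteins such as Notch receptors, APP and EGF receptor ligands, and Timp3 is the family member known for inhibiting Adam17. Serpine2, also called protease nexin-1, blocks thrombin, urokinase and plasmin, and oligodendrocyte precursors are known to use metalloproteinases when they migrate and extend processes.

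The upstream sequences of 3 of the genes are shown because they represent an inhibitor and a protease among the genes whose MB1 libraries lay higher in co-culture, Timp1 and Mmp14, and the inhibitor that set the lines apart and was lowest in Oli-neu grown with D341, Timp4. Each is the 250 bases before the annotated start in RefSeq (GRCm38.p6), read 5' to 3' on the strand of the gene, with the GC box GGGCGG in capitals on either strand. The windows are chrX:20869916-20870165 on the plus strand for Timp1, chr14:54431348-54431597 on the plus strand for Mmp14, and chr6:115252206-115252455 on the minus strand for Timp4.
Timp1: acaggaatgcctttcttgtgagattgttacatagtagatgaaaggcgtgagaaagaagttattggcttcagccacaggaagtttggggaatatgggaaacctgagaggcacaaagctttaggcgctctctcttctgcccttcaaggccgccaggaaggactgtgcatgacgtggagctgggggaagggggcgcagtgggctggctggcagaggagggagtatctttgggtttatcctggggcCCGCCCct
Mmp14: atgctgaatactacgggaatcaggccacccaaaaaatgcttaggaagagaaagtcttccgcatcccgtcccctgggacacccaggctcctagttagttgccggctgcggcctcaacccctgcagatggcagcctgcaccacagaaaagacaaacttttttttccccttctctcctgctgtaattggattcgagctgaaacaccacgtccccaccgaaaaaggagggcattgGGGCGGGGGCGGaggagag
Timp4: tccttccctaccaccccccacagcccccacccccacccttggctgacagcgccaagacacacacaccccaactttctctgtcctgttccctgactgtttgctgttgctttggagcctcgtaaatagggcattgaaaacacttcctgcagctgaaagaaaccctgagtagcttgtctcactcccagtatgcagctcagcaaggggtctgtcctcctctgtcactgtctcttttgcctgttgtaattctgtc
Timp1 held 1 GC box, 8 to 3 bases before the start, and Mmp14 held 2 that abut, 19 to 8 bases before it. Timp4 held none. The share of G and C was 54.4% in Timp1, 55.2% in Mmp14 and 53.6% in Timp4, and the windows held 6 CpG dinucleotides in Timp1, 10 in Mmp14 and 2 in Timp4, against medians of 52.4% and 6 over the windows of 32851 RefSeq promoters.

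RefSeq windows were matched for 9 of the 10 genes, all but Mmp2. A GC box was found in 8 of the 9, against 32.7% of the 32851 promoters. Serpine2 had 6, the last of them 13 to 8 bases before the start, and Adam10 had 3. No match was found in any of the 9 windows for an AP-1 motif (TGANTCA, in 6.75% of promoters), a STAT motif (TTCNNNGAA, 7.02%) or a TATA box (TATAAA, 12.4%), each searched on both strands. Overlapping GC boxes occurred in Adam10 and Serpine2, and each was counted. GENCODE exons lay in the windows of Timp2, Timp3, Mmp15, Adam17 and Serpine2, and those of Timp2 and Serpine2 lay wholly inside the GENCODE gene. These windows and that of Adam10 held 63.6% to 78.8% G and C, and 14 to 34 CpG dinucleotides. The medians over all promoters were 52.4% and 6, and the part of composition in the GC box matches was not tested.

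Several of the genes lie inside others in GRCm38. Timp1 (chrX:20870166-20874735, plus strand) lies within Syn1, Timp3 (chr10:86300372-86349506, plus strand) within Syn3 and Timp4 (chr6:115241892-115252205, minus strand) within Syn2, each on the strand opposite its synapsin host. Exons of Timp3 and Timp4 overlap exons of their hosts, whereas those of Timp1 and Syn1 do not. Adam17 (chr12:21323509-21373632, minus strand) overlaps an exon of Iah1 on the other strand. The kit marks strand, but whether quantification used it is not given in the sources used here, so reads of these pairs may have been shared. Syn2 lay between 7.49 and 9.42 TPM in MB1 and between 0.820 and 1.20 TPM in Oli-neu, below Timp4 in each of the 10 libraries. Iah1 lay between 21.8 and 29.1 TPM in Oli-neu, above Adam17 in each library of that line. In MB1 it lay between 18.8 and 29.8 TPM, below Adam17 in each library, and its part in the Adam17 values was not tested.

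TPM, transcript abundances corrected for length and scaled to the same total in each library, allow levels of different genes to be compared. Between 11596 and 12338 genes reached 1 TPM in a mouse library. The tables hold no counts, so depth is unknown. Annotated pseudogenes took 25.2% to 26.8% of the TPM in MB1 libraries and 36.0% to 38.2% in those of Oli-neu. Mitochondrially encoded genes took 5.73% to 9.56% in MB1 libraries and 1.93% to 4.53% in those of Oli-neu. Oli-neu held all 8 oligodendrocyte lineage markers, with Sox10 between 171 and 235 TPM. MB1 held the granule lineage genes Zic1, between 63.7 and 125 TPM, Zic2, between 22.6 and 30.3 TPM, and Pax6, between 18.6 and 25.4 TPM, but not Atoh1 and Barhl1, which were at or under 0.0143 TPM. Of the hedgehog targets, Ptch1 lay between 14.2 and 18.4 TPM in MB1 and between 3.38 and 5.93 TPM in Oli-neu, and Gli1 was at most 0.178 TPM in MB1. MB1 also held the oligodendrocyte lineage factors Olig1 and Olig2, while Sox10 was under 1 TPM.

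Serpine2 was the most abundant of the 10 genes in both lines. In MB1 it measured 2119 and 2489 TPM with Oli-neu and 2059 and 1746 TPM alone, which placed it at rank 66 of all genes by mean TPM. In Oli-neu it had 437 and 436 TPM beside D341, 641 and 441 TPM beside MB1, and 507 and 450 TPM alone, at rank 288. The other 9 genes stayed under 100 TPM in all 10 libraries.

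**Figure D1:**
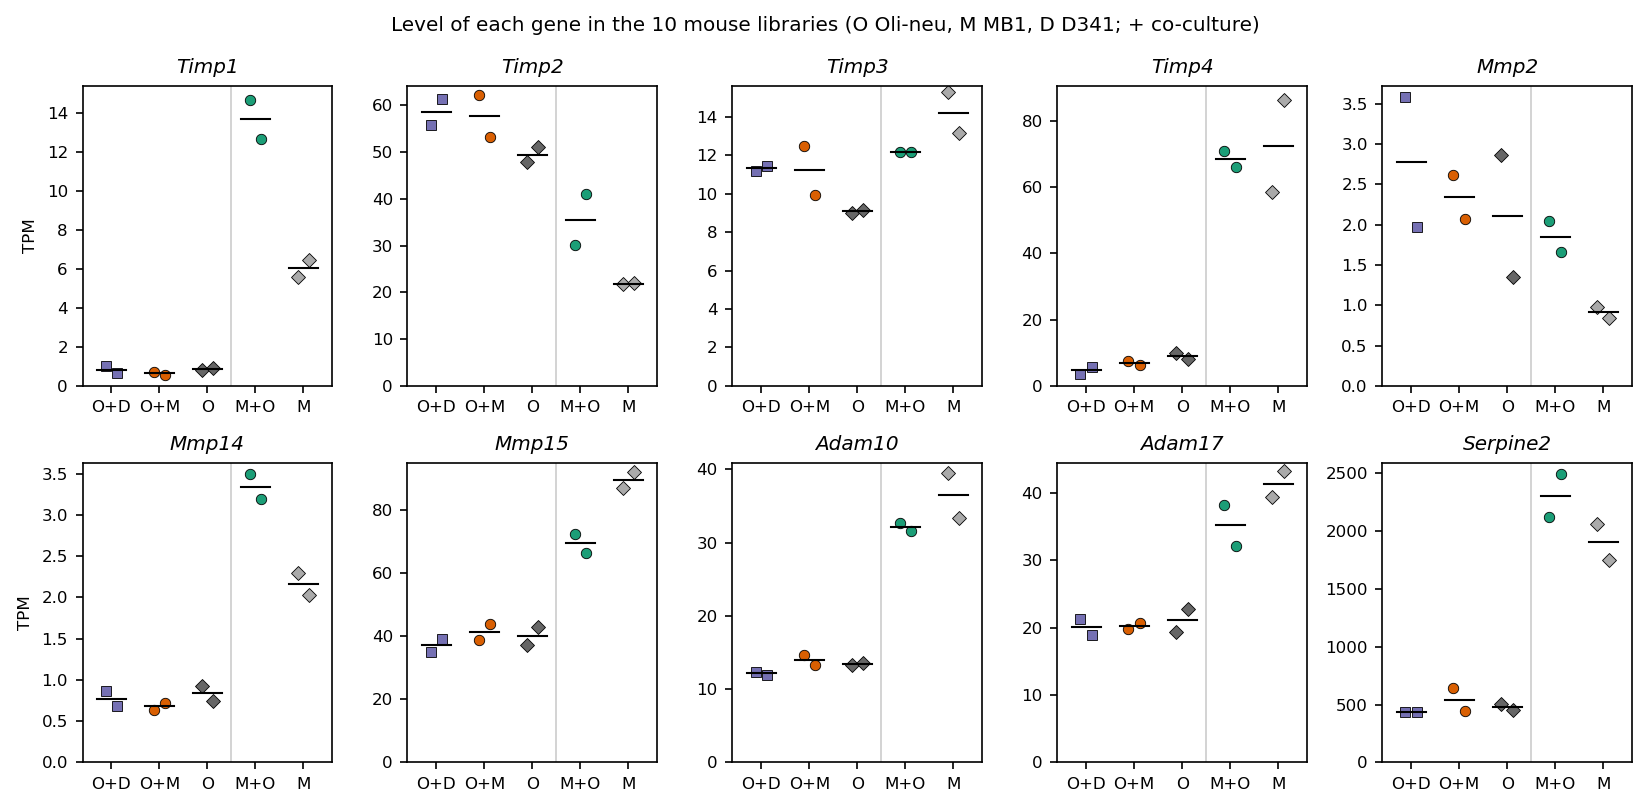
Level of each of the 10 genes in TPM (vertical axis, linear, from 0) in the 10 mouse libraries, with 1 point for each library and a line for the mean of 2. O+D and O+M are Oli-neu with D341 and with MB1, O is Oli-neu alone, M+O is MB1 with Oli-neu and M is MB1 alone; the lines were tabulated separately and are divided by the grey line. Timp1 and Timp4 are far higher in MB1, whereas Timp2 is higher in Oli-neu.

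The lines differed in which Timp mRNA was most abundant. Values of both lines are set side by side here without a test, because each line has its own table. Timp4 averaged 72.5 ± 19.7 TPM in MB1 alone and 9.18 ± 1.28 TPM in Oli-neu alone (SD, n = 2 each), a ratio of 7.90. For Timp1 the means were 6.04 ± 0.616 TPM in MB1 alone and 0.875 ± 0.0646 TPM in Oli-neu alone, a ratio of 6.90. Timp2 went the other way, with 21.9 ± 0.0430 TPM in MB1 alone and 49.4 ± 2.30 TPM in Oli-neu alone. Timp3 was the most even inhibitor, at 14.2 ± 1.51 TPM in MB1 alone and 9.09 ± 0.110 TPM in Oli-neu alone.

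Of the proteases, Mmp15, a membrane-bound metalloproteinase, was far above both other metalloproteinases of the set in every library. It averaged 89.4 ± 3.70 TPM in MB1 alone and 40.1 ± 4.07 TPM in Oli-neu alone. Mmp2 was lower in MB1 alone, 0.912 ± 0.0945 TPM, than in Oli-neu alone, 2.11 ± 1.07 TPM, and Mmp14 was higher in MB1 alone, 2.16 ± 0.190 TPM, than in Oli-neu alone, 0.838 ± 0.126 TPM. Both sheddases were higher in MB1 alone than in Oli-neu alone, Adam10 by a ratio of 2.71 and Adam17 by a ratio of 1.96. In each line Adam17 had the higher mean of the 2 sheddases.

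The order of the 5 groups by mean TPM fell into 3 patterns. Mmp15, Adam10, Adam17, Timp3 and Timp4 were highest in MB1 alone, next highest in MB1 with Oli-neu and lower in each Oli-neu group, and of these only Timp4 overlapped between the 2 MB1 groups. Timp1, Mmp14 and Serpine2 were highest in MB1 with Oli-neu and next highest in MB1 alone, without overlap. Timp2 and Mmp2 were highest in Oli-neu with D341 and lowest in MB1 alone. Among the Oli-neu groups the ranges overlapped for most neighbours: Timp1, Mmp2, Mmp14, Mmp15 and Adam17 overlapped at each step.

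Summed over the 4 Timp genes, Timp2 made up 70.6% to 77.9% of the inhibitor mRNA in the 6 Oli-neu libraries, and Timp4 made up 50.1% to 67.5% in the 4 MB1 libraries. The Timp1 share was 11.5% and 9.60% in MB1 with Oli-neu, against 5.53% and 5.06% in MB1 alone. The summed Timp level was 128 and 132 TPM in MB1 with Oli-neu, against 101 and 128 TPM in MB1 alone. Summed levels of Mmp2, Mmp14 and Mmp15 were 77.8 and 71.3 TPM in MB1 with Oli-neu, against 90.1 and 94.9 TPM in MB1 alone. The ratio of summed Timp to summed Mmp mRNA was accordingly 1.65 and 1.85 in MB1 with Oli-neu, against 1.12 and 1.35 in MB1 alone, without overlap. In Oli-neu this ratio was 1.81 and 1.90 with D341, 1.96 and 1.51 with MB1, and 1.65 and 1.54 alone, so that libraries with D341 lay above those alone and libraries with MB1 did not separate. The sums are mRNA levels, in which Timp2, Timp4 and Mmp15 weigh most, and no test was made on them. Other metalloproteinases are left out, among them Mmp16 and Mmp17, which averaged 16.6 and 8.87 TPM over the Oli-neu libraries. Over the MB1 libraries these averaged 2.79 and 1.31 TPM, so the ratios are not to be compared between the lines.

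**Figure D2:**
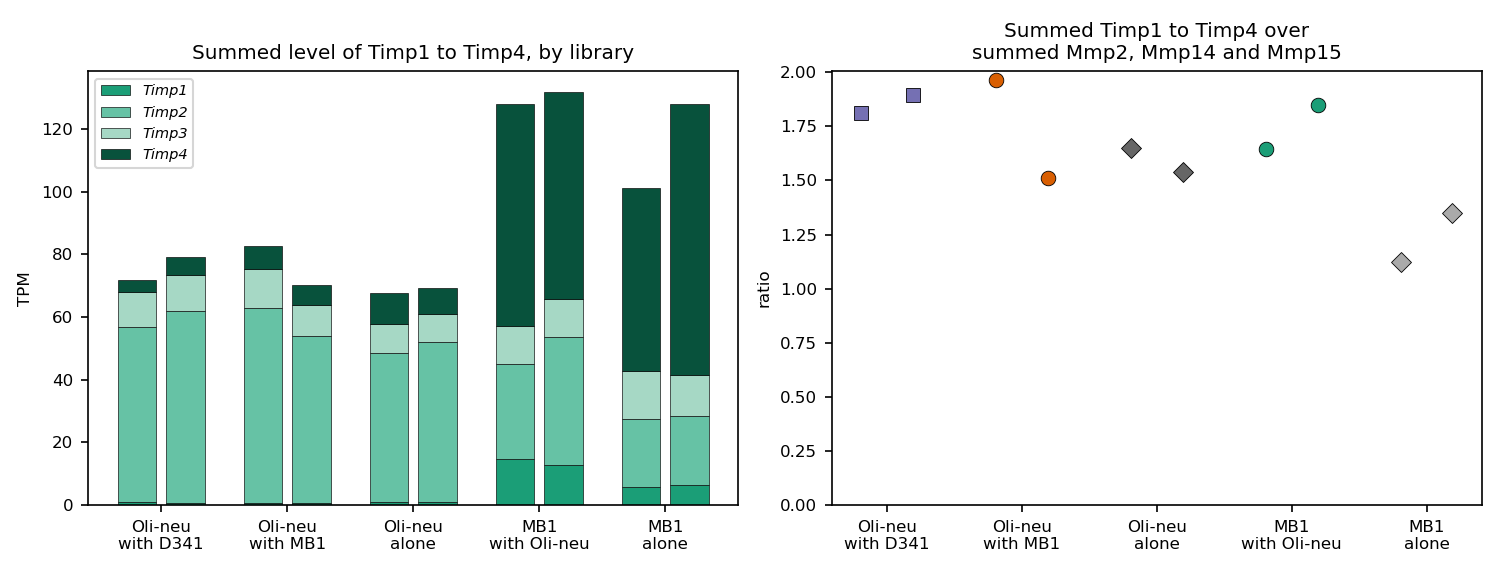
Left, summed level of Timp1 to Timp4 in TPM, stacked by gene, with 1 bar for each library. Right, ratio of that sum to the sum of Mmp2, Mmp14 and Mmp15 (vertical axis from 0), with 1 point for each library; MB1 with Oli-neu lies at 1.65 and 1.85 and MB1 alone at 1.12 and 1.35.

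In MB1 the comparison asks what co-culture with Oli-neu does to the tumour cells. Timp1, Timp2, Mmp2, Mmp14 and Serpine2 lay above MB1 alone in both co-cultured libraries, and Timp3, Mmp15, Adam10 and Adam17 lay below, the fitted sign of Adam10 turning under median-ratio scaling. None of the 10 passed limma at an adjusted p of 0.05, and neither did any of the other genes among the 12407 tested (0% called). At an unadjusted p under 0.05 there were 1944 genes, 375 higher and 1569 lower. Of all genes tested, 10.9% had both co-cultured libraries above both libraries of MB1 alone and 41.5% had both below. The genes followed here were chosen with this contrast known, so their 5 above and 4 below are not read against those shares. RNA came from whole cultures, in which fewer cells of a kind and less RNA per cell cannot be told apart.

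Timp1, which encodes a secreted inhibitor also known as a growth factor for some cells, had 14.7 and 12.7 TPM in MB1 with Oli-neu, against 5.60 and 6.47 TPM in MB1 alone. The groups were far apart relative to the gap between replicates. The ratio of means was 2.26 and the fitted log2 fold change was 1.06 (SE 0.17; limma adjusted p = 0.258). That p ranked 79 among the 12407 genes, and the log2 fold changes within replicate numbers 1 and 2 were 1.25 and 0.87. The host gene Syn1 measured 3.25 and 3.28 TPM in MB1 with Oli-neu, against 4.24 and 2.95 TPM in MB1 alone, and these overlapped.

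Timp2 had 30.2 and 41.0 TPM in MB1 with Oli-neu, against 21.9 and 21.9 TPM in MB1 alone. Both co-cultured libraries were higher, but they differed from each other by more than the lower one differed from MB1 alone. The log2 fold change was 0.66 (SE 0.20; limma adjusted p = 0.285).

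The inhibitors Timp3 and Timp4 did not share this direction. Timp3, the inhibitor that binds to the matrix, had 12.1 and 12.2 TPM in MB1 with Oli-neu, against 15.3 and 13.2 TPM in MB1 alone. Its log2 fold change of -0.21 (limma adjusted p = 0.516) was close to the median of all genes. Timp4 had 71.0 and 66.1 TPM in MB1 with Oli-neu, against 58.5 and 86.4 TPM in MB1 alone. Here the co-cultured libraries lay between the 2 of MB1 alone, and the log2 fold change was -0.054.

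Both parts of the Mmp14 and Mmp2 activation pair had higher means in co-culture. Mmp2 had 2.05 and 1.66 TPM in MB1 with Oli-neu, against 0.979 and 0.845 TPM in MB1 alone. Only the co-cultured libraries reached the 1 TPM that the test required, so a gene like this could enter the test only by being higher there. The ratio of means was 2.03, while the log2 fold change on the scale of TPM + 1 was 0.57 (SE 0.18; limma adjusted p = 0.288), which understates the change of a gene this low. Under the alternatives that kept all libraries, its log2 fold change ran from 0.21 to 0.94. Mmp14 had 3.49 and 3.19 TPM in MB1 with Oli-neu, against 2.29 and 2.03 TPM in MB1 alone, without overlap. Its ratio of means was 1.55 and its log2 fold change 0.46 (SE 0.16; limma adjusted p = 0.306).

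Mmp15, the most abundant of the 3 metalloproteinases, was lower in both co-cultured libraries. It had 72.3 and 66.4 TPM in MB1 with Oli-neu, against 86.8 and 92.1 TPM in MB1 alone. The log2 fold change was -0.36 (SE 0.15; limma adjusted p = 0.328), and the ratio of means was 0.775. Adam10 had 32.8 and 31.5 TPM in MB1 with Oli-neu, against 39.6 and 33.3 TPM in MB1 alone, with a log2 fold change of -0.17. Adam17, known as the tumour necrosis factor converting enzyme, had 38.3 and 32.1 TPM in MB1 with Oli-neu, against 39.4 and 43.3 TPM in MB1 alone, with a log2 fold change of -0.23. For both sheddases the higher co-cultured library came within 1.5 TPM of the lower library of MB1 alone. Serpine2 had a log2 fold change of 0.28 (SE 0.19; limma adjusted p = 0.472), and its co-cultured libraries began just above the higher one of MB1 alone.

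The median log2 fold change of all 12407 genes was -0.17, so a gene with no difference from the bulk of genes sat below 0. Relative to that median the changes were 1.23 for Timp1, 0.83 for Timp2, 0.75 for Mmp2, 0.63 for Mmp14 and 0.45 for Serpine2. On the same scale Mmp15 was at -0.19, Adam17 at -0.059, Timp3 at -0.036 and Adam10 at -0.00040, so the last 3 lay at the middle of all genes. Median-ratio scaling turned the sign of Timp4 (0.14) and Adam10 (0.016). With 1 library left out the number of genes called was most sensitive to replicate 1 of MB1 alone: 112 genes passed without it, and none of the 10 was among them. Timp1 then had an adjusted p of 0.145, the smallest for any of the 10 under any alternative.

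**Figure D3:**
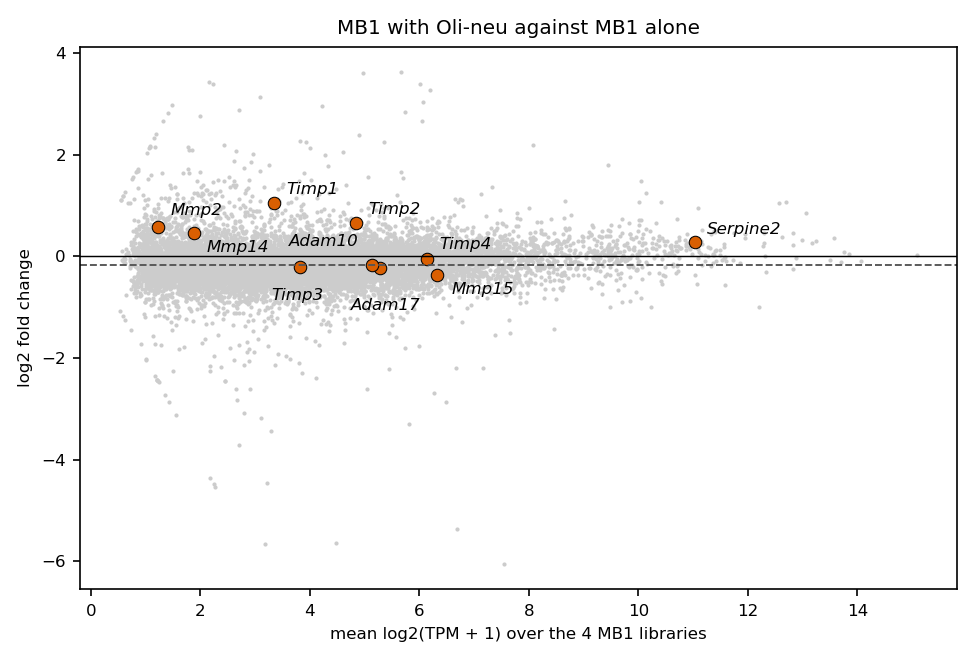
Log2 fold change of MB1 with Oli-neu against MB1 alone (vertical axis) against mean log2(TPM + 1) over the 4 MB1 libraries (horizontal axis) for the 12407 genes tested. Grey points are all genes, orange points the 10 protease and inhibitor genes, the solid line 0 and the dashed line the median of all genes at -0.17; Timp1 at 1.06 is the highest of the 10.

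Several marker lists moved with the MB1 comparison. The summed level of 6 astrocyte markers was 712 to 725 TPM in MB1 with Oli-neu, against 593 to 698 TPM in MB1 alone, with none of the 6 at 0. Slc1a3 carried it, with 419 and 404 TPM in MB1 with Oli-neu, against 363 and 324 TPM in MB1 alone. Gfap was also higher in both co-cultured libraries, while Aldoc, Aldh1l1, Gja1 and Aqp4 overlapped. The summed level of 8 oligodendrocyte lineage markers was 673 to 807 TPM in MB1 with Oli-neu, against 992 to 1163 TPM in MB1 alone, carried by Olig1 and Olig2, with none of the 8 at 0. Cspg4 and Mbp of that list overlapped. Of all genes tested, 41.5% had both co-cultured libraries below both alone. The summed level of 8 granule lineage and hedgehog markers was 168 to 194 TPM in MB1 with Oli-neu, against 132 to 149 TPM in MB1 alone, with Barhl1 at 0 in each of the 4 libraries and Atoh1 at 0 in 3. Zic1 carried that difference, with 101 and 125 TPM in MB1 with Oli-neu, against 84.3 and 63.7 TPM in MB1 alone, and the other 7 summed to 67.0 to 69.4 TPM in MB1 with Oli-neu, against 64.8 to 68.7 TPM in MB1 alone, with overlap. Pax6 was lower in both co-cultured libraries. The part of these shifts in the protease and inhibitor values was not tested. Markers of microglia and macrophages summed to at most 0.306 TPM, and those of fibroblasts and pericytes to at most 0.459 TPM, in every MB1 library.

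In Oli-neu the comparisons ask what the precursor-like cells do beside each tumour line. With D341, Timp2 and Timp3 lay above Oli-neu alone in both libraries, and Timp4, Adam10 and Serpine2 lay below, the fitted signs of Adam10 and Serpine2 turning under median-ratio scaling. With MB1, Timp2 and Timp3 again lay above Oli-neu alone, and Timp4 lay below, as did Timp1 and Mmp14. Both comparisons use the same libraries of Oli-neu alone. Timp1 and Mmp14 were too low to be tested, so 8 of the 10 genes entered the fit of 12280.

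No gene passed limma at an adjusted p of 0.05 in any of the 3 Oli-neu comparisons (0% called in each). At an unadjusted p under 0.05 there were 1684 genes with D341 against alone (198 higher, 1486 lower), 747 with MB1 against alone (176 higher, 571 lower) and 630 with D341 against with MB1 (97 higher, 533 lower). Both libraries lay above in 7.12% of genes and below in 44.0% with D341 against alone. The shares were 10.1% above and 24.0% below with MB1 against alone, and 6.60% above and 28.8% below with D341 against with MB1. Among the 8 tested genes there were 2 above and 3 below with D341 against alone, 2 above and 1 below with MB1 against alone, and 0 above and 3 below with D341 against with MB1. Nothing is read from these counts, since the genes were chosen with the contrasts known.

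In Oli-neu with D341, Timp4 had 3.68 and 5.75 TPM, in Oli-neu with MB1 it had 7.38 and 6.46 TPM, and it had 10.1 and 8.27 TPM in Oli-neu alone. No 2 groups overlapped, and the order ran from lowest beside D341 to highest alone. The log2 fold change against Oli-neu alone was -0.85 with D341 (SE 0.21; limma adjusted p = 0.320; ratio of means 0.514) and -0.36 with MB1 (SE 0.21; limma adjusted p = 0.876). Between the partners, with D341 against with MB1, it was -0.49 (limma adjusted p = 0.839). Within replicate numbers the change with D341 was -1.24 and -0.46, so its size rested largely on the library with 3.68 TPM. The host gene Syn2, which shares exon sequence on the other strand, measured 0.855 and 0.820 TPM beside D341, 1.16 and 0.914 TPM beside MB1, and 1.16 and 1.20 TPM alone, and its part in the Timp4 values was not tested.

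Timp2, the main inhibitor mRNA of Oli-neu, had 55.8 and 61.4 TPM beside D341, 62.1 and 53.3 TPM beside MB1, and 47.8 and 51.0 TPM alone. Its log2 fold change was 0.24 with D341 against alone (SE 0.13; limma adjusted p = 0.441) and 0.22 with MB1 against alone (SE 0.13; limma adjusted p = 0.880). Timp3 had 11.2 and 11.5 TPM beside D341, 12.5 and 9.95 TPM beside MB1, and 9.01 and 9.17 TPM alone. All 4 co-cultured libraries lay above both libraries alone for each of these inhibitors, by less than a factor of 1.5. The co-cultures did not separate from each other for Timp2 or Timp3. Timp1 had 1.00 and 0.663 TPM beside D341, 0.717 and 0.584 TPM beside MB1, and 0.829 and 0.920 TPM alone, near the floor of what was tested. Its libraries beside MB1 lay below those alone.

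Mmp2, Mmp15 and Adam17 overlapped between the Oli-neu groups. Mmp2 had 3.58 and 1.98 TPM beside D341, 2.62 and 2.07 TPM beside MB1, and 2.87 and 1.35 TPM alone. Replicate 1 was above replicate 2 in each of the 3 groups. Within replicate numbers 1 and 2 the log2 fold change of Mmp2 against Oli-neu alone was 0.24 and 0.34 with D341, and -0.096 and 0.38 with MB1. Mmp14 stayed between 0.635 and 0.927 TPM in the 6 libraries, too low to be tested. It had 0.635 and 0.724 TPM beside MB1, below the 0.927 and 0.749 TPM alone, while the libraries with D341 overlapped both groups. Mmp15 had 35.1 and 39.1 TPM beside D341, 38.9 and 43.7 TPM beside MB1, and 37.2 and 43.0 TPM alone, with replicate 2 the higher in each group. Within numbers its log2 fold change with D341 was -0.083 and -0.13 against Oli-neu alone, and -0.14 and -0.16 against Oli-neu with MB1. Same-numbered Oli-neu libraries deviated together across all genes, with correlations of 0.59 to 0.62.

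Adam10 had 12.4 and 12.0 TPM beside D341, 14.7 and 13.3 TPM beside MB1, and 13.3 and 13.6 TPM alone. Both libraries with D341 were lower than the other 4, but the log2 fold change against Oli-neu alone was -0.14 (SE 0.10; limma adjusted p = 0.552), near the all-gene median of -0.16. Adam17 lay between 18.9 and 22.8 TPM in all 6 libraries. Serpine2 with D341 was below Oli-neu alone by a log2 fold change of -0.13 (SE 0.21; limma adjusted p = 0.795).

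With D341 the median of all 12280 genes was -0.16, and relative to it Timp2 stood at 0.40, Timp3 at 0.45 and Timp4 at -0.69. Adam10 stood at 0.022 and Serpine2 at 0.028 on that scale. Median-ratio scaling turned the signs of Mmp15 (0.076), Adam10 (0.038), Adam17 (0.12) and Serpine2 (0.058) in the comparison with D341. With MB1 the all-gene median was -0.061.

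**Figure D4:**
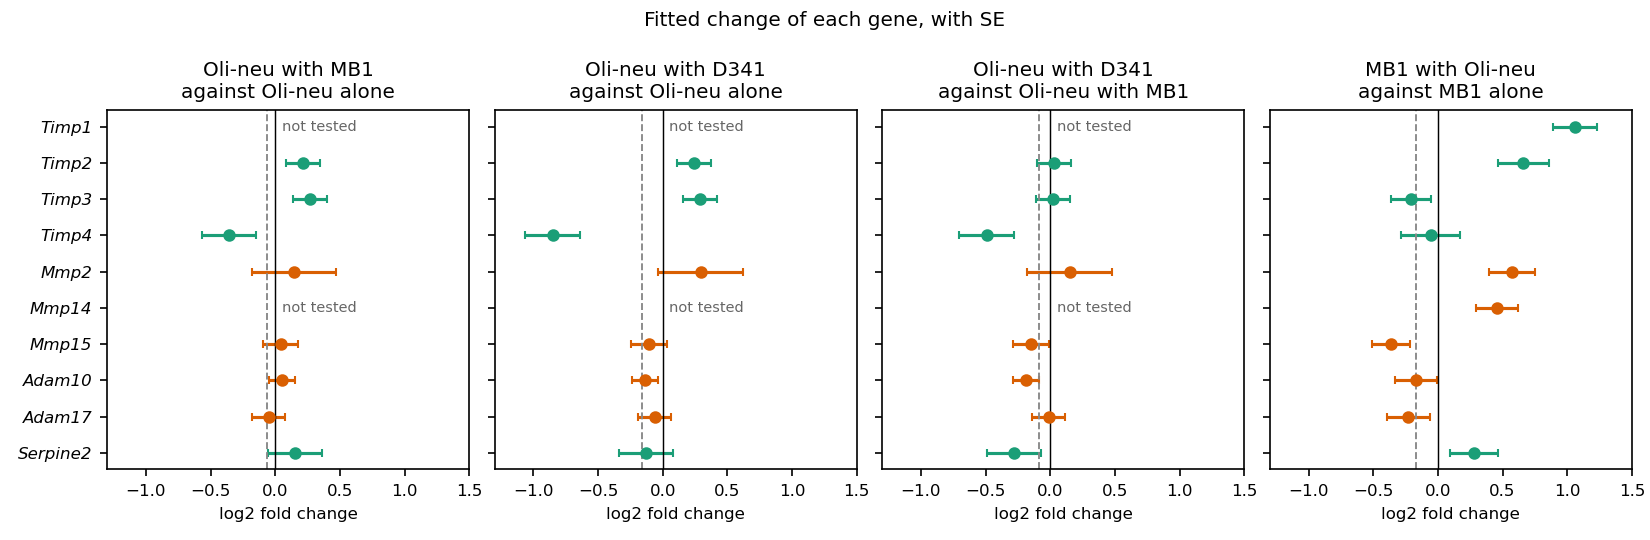
Log2 fold change with its standard error (horizontal axis) in the 4 comparisons, for all 10 genes in MB1 and for 8 in Oli-neu, where Timp1 and Mmp14 are marked as not tested; inhibitors are green, proteases orange, the solid line is 0 and the dashed line the median of all genes tested. Timp4 lies at -0.85 in Oli-neu with D341 against alone, and Timp1 at 1.06 in MB1 with Oli-neu against alone; no gene passed an adjusted p of 0.05.

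Several marker lists moved with the Oli-neu comparisons. The summed level of 6 fibroblast and pericyte markers was 61.2 to 74.2 TPM beside D341, 74.6 to 87.3 TPM beside MB1, and 95.9 to 101 TPM alone, nearly all of it Col3a1, while Pdgfrb was at 0 in all 6 libraries and Col1a2 at most 0.0218 TPM. Oligodendrocyte lineage markers summed to 555 to 582 TPM beside D341, 618 to 720 TPM beside MB1, and 628 to 699 TPM alone, with none of the 8 at 0. Astrocyte markers summed to 767 to 772 TPM beside D341, 908 to 1037 TPM beside MB1, and 828 to 853 TPM alone, nearly all of it Aldoc, while Aqp4 was at most 0.0175 TPM. Endothelial markers summed to 5.94 to 7.57 TPM beside D341, 6.86 to 8.21 TPM beside MB1, and 9.23 to 9.61 TPM alone, carried by Egfl7 and Pecam1, with Cldn5 at 0 in all 6 libraries. Granule lineage and hedgehog markers summed to 11.6 to 11.9 TPM beside D341, 13.3 to 13.6 TPM beside MB1, and 12.7 to 16.9 TPM alone, mostly Zic2 and Ptch1. The part of these lists in the values of the protease genes was not tested. Microglia and macrophage markers summed to at most 0.499 TPM, with C1qa at 0 in all 6 libraries.

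Genes whose pattern over the 6 Oli-neu libraries was most like that of a member were sought for the inhibitor and the protease with the widest range of group means, Timp4 and Mmp2. The 3 protein-coding genes with the highest Pearson correlation to Timp4 on log2(TPM + 1) were Vps26c (0.996), Eef1akmt1 (0.995) and 2410131K14Rik (0.993). For Mmp2 they were Timm10b (0.984), Snrpa (0.981) and Acadvl (0.977). These are the highest of 12280 genes over only 6 libraries, which share replicate numbers that stood apart across the whole table, and they are given as a description.

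Other genes of the same systems were taken from 6 lists. None of their members passed in any comparison, and the counts by sign below are on TPM as deposited, where the median of all genes lies under 0. Of all genes tested, 29.1% had a positive log2 fold change in MB1 with Oli-neu, 24.1% in Oli-neu with D341 and 37.4% in Oli-neu with MB1, each against the line alone. Of 20 other matrix metalloproteinases, 5 were tested in MB1 (3 higher and 2 lower with Oli-neu) and 3 in Oli-neu (1 higher and 2 lower with D341, 2 higher and 1 lower with MB1). Mmp16, another membrane-bound enzyme, was the highest of them in Oli-neu, at 15.9 and 14.6 TPM beside D341, 20.6 and 16.5 TPM beside MB1, and 16.3 and 15.9 TPM alone. Mmp17, anchored to the membrane by a lipid, lay between 7.83 and 10.5 TPM in the 6 Oli-neu libraries, and the secreted Mmp28 between 0.902 and 1.28 TPM. In MB1 no gene of that list averaged 5 TPM. The highest there were Mmp16 (1.80 and 3.11 TPM with Oli-neu, 3.95 and 2.29 TPM alone), Mmp19 (2.89 and 2.41 TPM with Oli-neu, 1.95 and 2.24 TPM alone) and Mmp11 (2.64 and 2.89 TPM with Oli-neu, 0.673 and 2.52 TPM alone). The median log2 fold change of the tested metalloproteinases was 0.23 in MB1, -0.073 in Oli-neu with D341 and 0.18 in Oli-neu with MB1, where the medians of all genes were -0.17, -0.16 and -0.061. In Oli-neu, Mmp28 reached the 1 TPM that the test required only in co-cultured libraries, so its higher sign is not read as a result. Its value is the 0.18 with MB1. In MB1, Mmp17 reached 1 TPM only in the libraries alone, so its lower sign is not read either. Nothing is concluded from medians of 3 and 5 genes.

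Of 10 other ADAM proteins, 8 were tested in each line, with 4 higher and 4 lower in MB1 with Oli-neu, 2 higher and 6 lower in Oli-neu with D341, and 4 and 4 in Oli-neu with MB1. The median log2 fold change of those tested was 0.052 in MB1, -0.17 in Oli-neu with D341 and -0.022 in Oli-neu with MB1. Adam15 was more abundant than Adam10 or Adam17 in both lines. It measured 125 and 110 TPM in MB1 with Oli-neu, against 101 and 96.8 TPM in MB1 alone. In Oli-neu, Adam15 lay between 73.6 and 98.9 TPM, Adam9 between 15.6 and 21.4 TPM and the neuronal adhesion protein Adam23, which lacks protease activity, between 13.3 and 19.9 TPM. Adam9, a widely expressed ADAM protease, had 59.4 and 56.8 TPM in MB1 with Oli-neu, against 63.8 and 64.4 TPM in MB1 alone. Adam12 had 9.03 and 9.98 TPM in MB1 with Oli-neu, against 17.4 and 12.9 TPM in MB1 alone, without overlap, and its log2 fold change was -0.61 (SE 0.20; limma adjusted p = 0.297).

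Of 19 ADAMTS proteases, which are secreted and cut proteoglycans and procollagens, 9 were tested in MB1 (4 higher, 5 lower) and 10 in Oli-neu (2 higher and 8 lower with D341, 7 higher and 3 lower with MB1). Their median log2 fold change was -0.068 in MB1, -0.13 in Oli-neu with D341 and 0.073 in Oli-neu with MB1. In MB1, Adamts12 reached the 1 TPM that the test required only in the libraries alone, so its lower sign is not read as a result. Adamts10 was among the highest in both lines. It measured 7.33 and 8.87 TPM in MB1 with Oli-neu, against 10.7 and 11.9 TPM in MB1 alone. Adamts7 lay between 10.7 and 11.9 TPM and Adamts1, an aggrecan-cutting protease, between 8.86 and 10.4 TPM in the 4 MB1 libraries, and neither separated the groups. In the 6 Oli-neu libraries Adamts10 lay between 21.5 and 31.4 TPM, Adamts1 between 9.73 and 15.6 TPM and Adamts9 between 7.57 and 9.76 TPM.

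Of 14 genes of plasminogen activation and related serpins, 8 were tested in MB1 (5 higher, 3 lower) and 7 in Oli-neu (3 higher and 4 lower with D341, 2 higher and 5 lower with MB1). For these the median log2 fold change was 0.050 in MB1, -0.027 in Oli-neu with D341 and -0.15 in Oli-neu with MB1. Plat, which encodes tissue plasminogen activator, a protease that Serpine2 can inhibit, had 46.6 and 47.4 TPM in Oli-neu with D341, 46.7 and 40.5 TPM in Oli-neu with MB1, and 28.8 and 31.8 TPM in Oli-neu alone. All 4 co-cultured libraries lay above both libraries alone. The log2 fold change was 0.62 with D341 (SE 0.12; limma adjusted p = 0.320) and 0.51 with MB1 (SE 0.12; limma adjusted p = 0.715). In MB1, Plat had 164 and 217 TPM with Oli-neu, against 169 and 151 TPM alone, and these overlapped. Htra1, a secreted serine protease, had 90.5 and 75.6 TPM in MB1 with Oli-neu, against 55.1 and 69.4 TPM in MB1 alone. Serpinh1, a collagen chaperone of the serpin family, lay between 102 and 127 TPM in MB1 and between 27.9 and 35.7 TPM in Oli-neu. Serpinf1, an inhibitor of vessel growth, lay between 19.3 and 24.5 TPM in Oli-neu.

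Of 20 activators and partners of these proteases, 17 were tested in MB1 (6 higher, 11 lower) and 14 in Oli-neu (5 higher and 9 lower with D341, 7 and 7 with MB1). In MB1, Pcsk5 and Cldn11 reached the 1 TPM that the test required only in the libraries alone, so their lower signs are not read as a result. For this list the median log2 fold change was -0.19 in MB1, -0.15 in Oli-neu with D341 and -0.0037 in Oli-neu with MB1. Bsg, the metalloproteinase inducer also called EMMPRIN, was the highest in both lines. It had 847 and 843 TPM in MB1 with Oli-neu, against 759 and 1223 TPM in MB1 alone. In Oli-neu, Bsg had 1818 and 1918 TPM beside D341, 1642 and 1511 TPM beside MB1, and 1646 and 1493 TPM alone. The libraries with D341 were the highest, at a log2 fold change of 0.25 against alone (SE 0.14; limma adjusted p = 0.434). Rhbdf1, an inactive rhomboid needed for Adam17 maturation, lay between 25.9 and 36.4 TPM in the 6 Oli-neu libraries.

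A2m, which encodes the broad protease trap alpha-2-macroglobulin, had 31.1 and 30.8 TPM in MB1 with Oli-neu, against 53.2 and 53.1 TPM in MB1 alone. Its replicates lay close together, and the log2 fold change was -0.76 (SE 0.14; limma adjusted p = 0.282). Tspan5, a tetraspanin that accompanies Adam10 to the membrane, had 46.6 and 42.1 TPM in MB1 with Oli-neu, against 54.8 and 58.0 TPM in MB1 alone. In Oli-neu the means of Tspan5 were 3.49 ± 0.272 TPM beside D341, 4.79 ± 0.0564 TPM beside MB1 and 4.83 ± 0.127 TPM alone (SD, n = 2 each). Cd44, a hyaluronan receptor that anchors metalloproteinases and is itself cut by Adam10 and Mmp14, had 31.0 and 32.3 TPM in MB1 with Oli-neu, against 18.1 and 19.0 TPM in MB1 alone, a log2 fold change of 0.74 (SE 0.14; limma adjusted p = 0.282). In Oli-neu, Cd44 lay between 13.6 and 16.6 TPM.

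Of 21 substrates of Adam10 and Adam17, 16 were tested in MB1 (7 higher, 9 lower) and 15 in Oli-neu (4 higher and 11 lower with D341, 7 higher and 8 lower with MB1). The substrates had a median log2 fold change of -0.027 in MB1, -0.13 in Oli-neu with D341 and -0.0034 in Oli-neu with MB1. App had 186 and 199 TPM in MB1 with Oli-neu, against 191 and 145 TPM in MB1 alone. The related Aplp2 had 451 and 446 TPM in MB1 with Oli-neu, against 452 and 570 TPM in MB1 alone. Ptprz1, a receptor phosphatase of glial precursors, had 166 and 169 TPM in MB1 with Oli-neu, against 235 and 165 TPM in MB1 alone. The means of each of these 3 differed by less than the gap between the libraries of MB1 alone. In the 6 Oli-neu libraries App lay between 222 and 280 TPM, Aplp2 between 141 and 198 TPM and Cspg4, the NG2 proteoglycan of oligodendrocyte precursors, between 86.3 and 103 TPM.

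Among list genes chosen after their values were seen, Pcsk7, a proprotein convertase, had 5.55 and 8.07 TPM in MB1 with Oli-neu, against 18.1 and 19.7 TPM in MB1 alone, a log2 fold change of -1.37 (SE 0.21; limma adjusted p = 0.254). The EGF receptor ligands Hbegf and Areg, released by sheddases, were higher in both co-cultured MB1 libraries. Hbegf had 18.3 and 18.9 TPM in MB1 with Oli-neu, against 10.1 and 12.7 TPM in MB1 alone, and Areg had 4.15 and 4.33 TPM in MB1 with Oli-neu, against 2.42 and 2.10 TPM in MB1 alone. Another such ligand, Tgfa, was lower in both, with 3.03 and 2.41 TPM in MB1 with Oli-neu, against 3.48 and 3.20 TPM in MB1 alone. The substrates Notch1, Notch2 and Nlgn3 were also lower in both, with log2 fold changes of -0.69, -0.50 and -0.66. Plau, the urokinase that Serpine2 blocks, had 2.13 and 2.05 TPM in MB1 with Oli-neu, against 1.02 and 1.06 TPM in MB1 alone. None of these genes passed the adjusted threshold.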

How the data were processed

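Poly(A) RNA was sequenced over 75 cycles, per the labels. The deposited values are TPM per gene, made by the authors in 1 table for each line, and each column sums to 1000000. Salmon 0.14.1 and the build GRCm38 are named in the submitters' processing notes. The D341 table was not used here. No counts are given, so depth is unknown and no counting interval is possible. Symbols came from GENCODE M21 (GRCm38), which matched 35099 of 35288 identifiers.

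The genes and lists were chosen with earlier results of these data known. Genes that reached 1 TPM in 2 or more libraries of a line entered limma 3.58.1 (R 4.3.3) as log2(TPM + 1), with a mean-variance trend, in 1 fit for the 6 Oli-neu and 1 for the 4 MB1 libraries. Tests were two-sided, with Benjamini-Hochberg adjustment over all genes tested in a comparison and a threshold of 0.05. Errors are the SD of 2 libraries for TPM and the moderated SE for log2 fold changes; p-values measure the spread between 2 replicate cultures. The procedure was run on simulated data with added changes of 2 log2 units and noise independent between libraries. That run does not cover the smaller changes described here, or same-numbered libraries that deviate together.

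All 10 genes are named, and of each other list the 3 genes with the highest mean TPM in each line. The settings varied, one at a time, were the pseudocount (0.1 or 5 TPM), the filter (none, or 5 TPM), median-ratio scaling, protein-coding genes alone, no trend, the replicate number as a block, the 4 libraries compared alone, and each library left out in turn. A crossed block in MB1 was added after seeing the data.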

Additional observations from a re-analysis of the deposited data

Results flagged for a closer look

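Some genes had both co-cultured libraries on one side of the line grown alone in MB1 and on the opposite side in Oli-neu; the differences between the lines were not tested, and the lines were tabulated apart. Of all genes tested, 52.5% did not overlap in MB1, 34.1% in Oli-neu with MB1 and 51.1% in Oli-neu with D341, each against alone. The share on opposite sides was not counted. For Timp3 the log2 fold change was -0.21 in MB1 with Oli-neu, against 0.27 in Oli-neu with MB1, a difference of -0.48, and against 0.29 in Oli-neu with D341, a difference of -0.50. With median-ratio scaling these 3 values became -0.028, 0.33 and 0.46, and the MB1 value was then near 0. For Serpine2 the log2 fold change was 0.28 in MB1 with Oli-neu and -0.13 in Oli-neu with D341, a difference of 0.41, and the Oli-neu value became 0.058 with median-ratio scaling. Among the genes of the other lists, values are on TPM as deposited. Pcsk7 had -1.37 in MB1 with Oli-neu and 0.32 in Oli-neu with MB1, a difference of -1.69. Its Oli-neu levels barely separated, at 13.8 and 9.42 TPM with MB1, against 9.34 and 8.56 TPM alone. The size of that Oli-neu change rested largely on the library with 13.8 TPM. Adam11 had 0.74 in MB1 with Oli-neu and -0.28 in Oli-neu with MB1, a difference of 1.03. Adam15 had 0.25 in MB1 with Oli-neu and -0.23 in Oli-neu with MB1, a difference of 0.47. Its Oli-neu levels were 73.6 and 74.3 TPM with MB1, against 98.9 and 75.9 TPM alone. The Oli-neu change of Adam15 thus rested largely on the library with 98.9 TPM. Tgfa, an EGF receptor ligand, had -0.23 in MB1 with Oli-neu and 0.19 in Oli-neu with MB1, a difference of -0.41. Htra1 had 0.41 in MB1 with Oli-neu and -0.98 in Oli-neu with D341, a difference of 1.39. Its Oli-neu levels were low, 1.31 and 1.45 TPM with D341, against 4.83 and 2.76 TPM alone. The MB1 levels of Adam11 were uneven, 8.18 and 16.2 TPM with Oli-neu, against 6.66 and 6.35 TPM alone. No fold change named here passed limma's adjusted threshold of 0.05.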

How the results depend on the processing

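None of the 10 genes passed limma's adjusted threshold in any of 483 values under the alternatives, and 25 of those values had the opposite sign, in 16 of 34 gene and comparison pairs. Under median-ratio scaling the log2 fold change became 0.013 for Adam17 in Oli-neu with MB1 and 0.10 for Adam17 in Oli-neu with D341 against with MB1; in Oli-neu with D341 against alone it became 0.076 for Mmp15, 0.038 for Adam10, 0.12 for Adam17 and 0.058 for Serpine2; in MB1 it became 0.14 for Timp4 and 0.016 for Adam10. With 1 library left out, values in Oli-neu with D341 against alone ran from -0.067 to 0.65 for Mmp2 and from -0.17 to 0.046 for Adam17. In Oli-neu with MB1 against alone they ran from -0.22 to 0.50 for Mmp2, -0.058 to 0.14 for Mmp15, -0.014 to 0.12 for Adam10, -0.16 to 0.060 for Adam17 and -0.12 to 0.42 for Serpine2. In Oli-neu with D341 against with MB1 they ran from -0.084 to 0.13 for Timp2, -0.13 to 0.17 for Timp3, -0.16 to 0.46 for Mmp2 and -0.098 to 0.070 for Adam17. In MB1, Timp4 ran from -0.33 to 0.22. The cause of these changes was not tested.

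Counts of genes called, 0 in each comparison, became 3 (no filter) and 1 (protein-coding genes alone) in Oli-neu with D341 against alone, and 0 to 2 with 1 library left out. In Oli-neu with MB1 against alone they became 3 (pseudocount of 0.1 TPM), 1 (no filter), 2 (median-ratio scaling), 2 (protein-coding genes alone) and 1 (no trend), and 0 with 1 library left out. In Oli-neu with D341 against with MB1 they became 6 (no filter), 1 (protein-coding genes alone) and 1 (no trend), and 0 to 3 with 1 library left out. In MB1 they became 5 (protein-coding genes alone), and 1 to 112 with 1 library left out, 112 being without replicate 1 of MB1 alone. With the replicate block 0 genes were called in each comparison, and 0 with the numbers crossed in MB1. With 2 numbers per comparison it is not shown that they pair the cultures: deviations of same-numbered libraries correlated at 0.59 to 0.62 in Oli-neu, where the first principal component (53.6% of variance) separated the numbers, and at -0.115 in MB1. A library left alone in its group was assumed to vary like the others. With 2 libraries a group and unknown depth, values near 1 TPM (Timp1 and Mmp14 in Oli-neu, Mmp2 in MB1) are the least certain.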
